A study of Mus musculus with 9 samples.

Results

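Genes of glycolysis and of the HIF-1 oxygen-sensing pathway were examined in regulatory T (Treg) cells with and without the Hippo kinases Mst1 and Mst2. The 36 genes were listed by their known place in the pathway, with earlier results of these data known, and a gene was taken when the array annotation gave a probe set its symbol alone. This left 33 of the 36 among 22180 genes in all, each represented by the probe set with the highest mean. Gpi1, Aldoa and Eno1 had no probe set with their symbol alone and were not analysed here. Transcripts were measured on 9 Affymetrix arrays, 1 per sample, in 5 wild-type and 4 null samples. Wild-type Treg cells came from Foxp3YFP-Cre donor marrow, and null Treg cells from Foxp3YFP-CreStk4f/fStk3f/f donor marrow, in which the genes for Mst1 (Stk4) and Mst2 (Stk3) are flanked by loxP sites. All samples are labelled C57BL/6. The YFP-Cre allele of Foxp3 was thus common to both groups, and Cre acts only in cells that have turned on Foxp3. In both, donor marrow (CD45.2+) was mixed 1:1 with CD45.1 wild-type marrow and given to RAG1-/- recipients. Such recipients lack mature T and B cells of their own. Sorting 2 months later took CD4+ YFP+ cells positive for CD45.2 and negative for CD45.1. Neither the ages of the mice nor whether each sample was its own chimera is stated, and p-values therefore reflect sample-to-sample spread, which may be technical. By their serial numbers the wild-type samples all precede the null samples, and such an order cannot be told apart from genotype.

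Glycolysis splits glucose into pyruvate in the cytosol, and lactate dehydrogenase can turn pyruvate into lactate. Pyruvate dehydrogenase kinases inhibit pyruvate dehydrogenase, the enzyme that feeds pyruvate into oxidation in the mitochondria. HIF-1 is a pair of proteins, Hif1a and Arnt, that raises the transcription of glucose transporters and glycolytic enzymes. In oxygen, prolyl hydroxylases mark Hif1a so that Vhl sends it for degradation. In T cells, activation increases glycolysis, and Treg cells are known to rely on it less than effector T cells do.

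Values are log2 expression values after robust multi-array averaging (RMA), and every difference is null minus wild type. Foxp3, the factor that defines Treg cells, read between 10.59 and 10.79. All 8 Treg cell markers had a mean above the median of all values, but 3 of them fell in null samples: Ikzf2 by a difference of -0.72, Ikzf4 of -0.62 and Lrrc32 of -1.06 (limma adjusted p = 0.0330, 0.0145 and 0.0267). The median of all values was 4.04, and 31 of the 33 members had a mean above it. Pfkm and Pfkfb4 lay below it and get no fold, since their signal may be background. Arrays of the null group correlated less with each other (mean r from 0.968 to 0.9746) than wild-type arrays did (from 0.984 to 0.986). The heat shock genes Hspa1a and Hspa1b had a mean of 3.06 to 10.21 across arrays, with low values in wild-type samples 1 and 2 and null sample 1. The difference of Stk4 was -0.27 and missed the threshold (limma adjusted p = 0.146). No source used here says which exons its probes cover, and this value does not check the deletion. Stk3 was not analysed here.

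In null Treg cells 4 of the 33 members fell and 0 rose. They were Hif1a, the oxygen-regulated subunit of HIF-1 (1.48-fold lower), Galm, the mutarotase that interconverts the alpha and beta forms of glucose (1.57-fold), Pgk1, phosphoglycerate kinase (1.53-fold), and Ldhb, the lactate dehydrogenase subunit that favours lactate use (1.72-fold). Calls are from limma, with p-values adjusted over all 22180 genes and a threshold of 0.05. By this rule 2.32% of all genes were called (1.89% lower and 0.428% higher). Among genes with a mean above the median of all values 3.56% were called lower, against 12.1% of the 33 members, which were not chosen independently of these data. Unadjusted p was under 0.05 for 13 members by the probe set used, all of them lower in null samples. At that level 9.8% of all genes were lower, and 1975 of the 11350 genes above the median of all values. RNA was measured per sample of cells, so fewer cells of a kind and less RNA per cell cannot be told apart.

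Among the remaining 29 members, 24 also had lower means in null samples, with differences down to -0.80 (Tpi1), none past the threshold. Of the 33, 28 had a lower and 5 a higher mean, with a median difference of -0.18. The median difference was 0.0023 over all genes and -0.037 over genes above the median of all values, of which 59.2% had a lower mean. The 5 members with a higher mean were Egln2, Hif1an, Pfkfb3, Eno3 and Pdk1, none past the threshold, and after quantile normalisation of the gene values 25 of the 33 had a lower mean. Groups did not overlap in 9 members, each lower in null samples, where the same held for 4.4% of all genes and 8.08% of genes above the median of all values. No member was higher in null samples without overlap, against 1.76% of all genes.

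**Figure D1:**
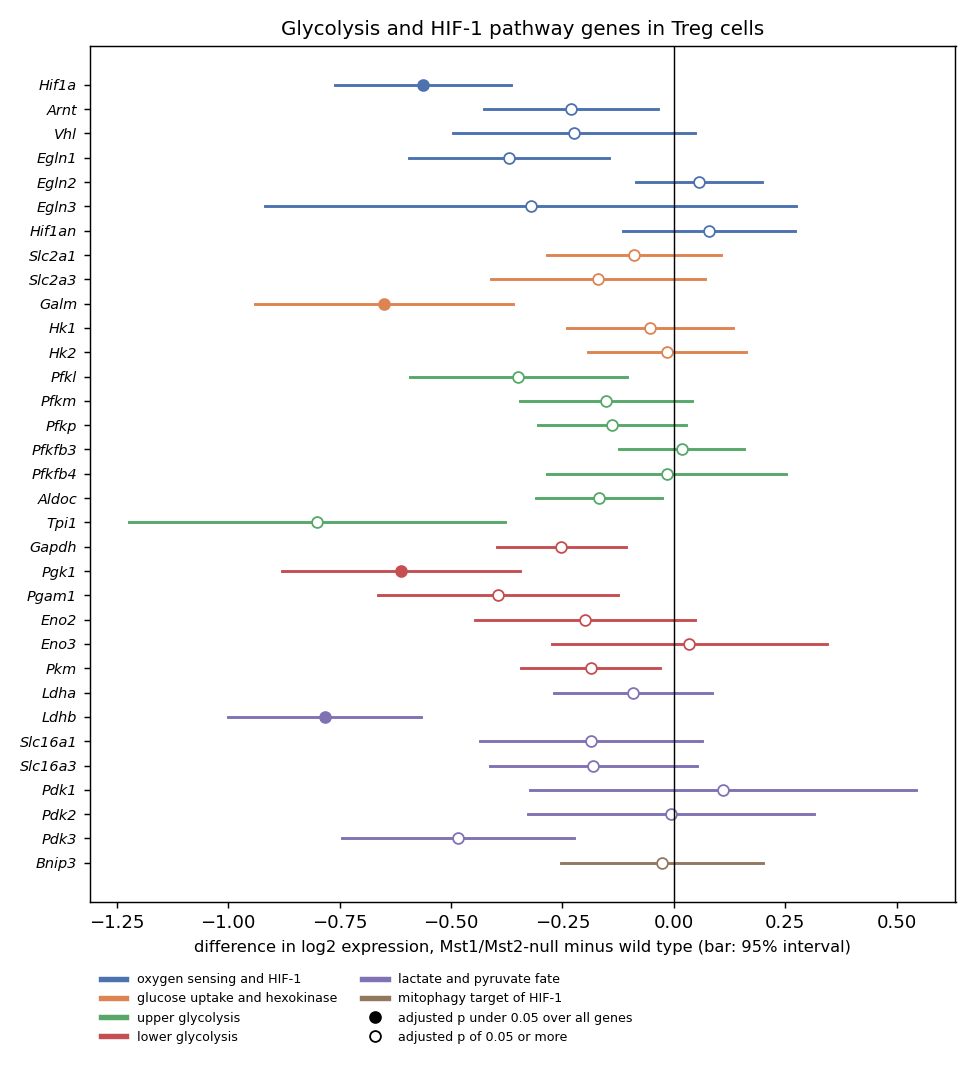
Difference in log2 expression (null minus wild type) of the 33 members in pathway order, with 95% intervals from limma; colours give the step of the pathway and filled points passed the threshold. The 4 filled points, Hif1a, Galm, Pgk1 and Ldhb, lie between -0.78 and -0.56, and Tpi1 lies lowest at -0.80 with an open point.

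Promoter sequences of the members that fell are shown first, because HIF-1 binds DNA at short elements with the core ACGTG or GCGTG and Hif1a, one of its subunits, is itself among the members that fell. Ldha is added as an isoenzyme of Ldhb that did not pass. Its level was not far above the median of all values, where a fall may be hard to see. The 250 bases before each start are from RefSeq (GRCm38.p6), 5′ to 3′ on the strand of the gene, with matches to either core, on either strand, in capitals. Hif1a lies at chr12:73907617-73907866 (+), Pgk1 at chrX:106186850-106187099 (+), Ldhb at chr6:142507958-142508207 (-) and Ldha, at the first of its 2 listed starts, at chr7:46845554-46845803 (+). Galm is not shown.
Hif1a: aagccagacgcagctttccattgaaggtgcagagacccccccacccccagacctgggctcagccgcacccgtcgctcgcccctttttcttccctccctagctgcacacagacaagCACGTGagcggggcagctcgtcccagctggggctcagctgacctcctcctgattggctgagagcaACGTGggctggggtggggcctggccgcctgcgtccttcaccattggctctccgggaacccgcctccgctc
Pgk1: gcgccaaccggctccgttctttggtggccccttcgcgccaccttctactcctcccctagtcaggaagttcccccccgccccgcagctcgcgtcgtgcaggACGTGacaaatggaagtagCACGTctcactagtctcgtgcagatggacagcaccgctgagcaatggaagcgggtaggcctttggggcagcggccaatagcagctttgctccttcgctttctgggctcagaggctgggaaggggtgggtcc
Ldhb: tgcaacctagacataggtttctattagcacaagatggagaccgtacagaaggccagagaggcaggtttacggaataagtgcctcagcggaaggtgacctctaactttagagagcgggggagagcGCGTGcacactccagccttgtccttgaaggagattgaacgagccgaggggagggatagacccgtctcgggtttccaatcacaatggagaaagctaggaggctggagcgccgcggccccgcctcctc
Ldha: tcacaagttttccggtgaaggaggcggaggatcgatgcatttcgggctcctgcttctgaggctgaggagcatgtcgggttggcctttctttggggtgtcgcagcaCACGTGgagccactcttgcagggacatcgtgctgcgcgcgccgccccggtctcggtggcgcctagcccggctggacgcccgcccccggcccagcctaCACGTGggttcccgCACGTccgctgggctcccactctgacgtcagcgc
The Hif1a window held CACGTG, which reads as ACGTG on both strands from positions -135 and -134 relative to the start, and a second ACGTG at -70. CACGTG is also the core of the E-box that MYC and related factors bind, so the same letters serve more than 1 motif. Pgk1 had ACGTG at -150 and, on the opposite strand, at -131. Ldhb had 1 match, GCGTG at -126. Ldha had the most, with CACGTG at both -145 and -48, ACGTG on the opposite strand at -34, and 2 more matches after the start. Within the whole 300 bases of each window, either core was found for 29 of the 34 members in the table (85.3%) and for 46.7% of all 27025 genes. ACGTG alone was found for 61.8% and 21.8%. A gene with several starts counts here if any of its windows has a match. Per window, either core was in 77.6% of 49 member windows and 43.8% of all 32851. For ACGTG alone these shares were 49.0% and 19.6%. Members' windows were richer in G and C (median 61.3%, against 52.7% over all windows), which bears on how often these letters occur. A match describes the letters only.

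Among the genes of the oxygen-sensing pathway, Hif1a was 8.92, 9.19, 9.15, 9.21 and 9.02 in the wild-type samples and 8.36, 8.56, 8.50 and 8.71 in the null samples. All 4 null values lay below all 5 wild-type values, with a gap of 0.20. The mean fell from 9.10 ± 0.12 (SD, n = 5) to 8.53 ± 0.15 (SD, n = 4), a difference of -0.56 ± 0.089 (SE), and limma gave an adjusted p of 0.0109. Hif1a passed under all 19 alternative settings tried, with adjusted p from 0.0069 to 0.0366. A second Hif1a probe set read lower and differed less: it was 6.76, 7.17, 7.01, 6.86 and 6.78 in wild type and 6.65, 6.62, 6.79 and 6.47 in null samples. Only null sample 3 reached into the wild-type range there, and the difference of -0.28 did not pass (limma adjusted p = 0.201). With the mean of both probe sets the difference was -0.42 (limma adjusted p = 0.0205).

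Arnt, the partner with which Hif1a binds DNA, was 7.89, 7.59, 7.87, 7.93 and 7.63 in wild type and 7.61, 7.56, 7.44 and 7.61 in null samples. The groups overlapped because wild-type sample 2 lay below null samples 1 and 4, and the difference of -0.23 did not pass (limma adjusted p = 0.238). Egln1, the main prolyl hydroxylase acting on Hif1a, was 7.27, 7.45, 6.99, 7.18 and 7.33 in wild type and 7.08, 6.83, 6.74 and 6.85 in null samples. Null sample 1 stood above the lowest wild-type value, and the difference of -0.37 (95% interval from -0.60 to -0.15) did not pass after adjustment (limma adjusted p = 0.1003). The other hydroxylases gave wider or smaller differences: Egln2 averaged 7.14 ± 0.081 (SD, n = 5) without and 7.19 ± 0.063 (SD, n = 4) with the deletion. Egln3, which HIF-1 is known to induce, ranged from 4.86 to 6.35 within the null group, wider than the whole wild-type range of 5.39 to 6.15. Vhl, the substrate receptor of the ligase, had a difference of -0.22 (95% interval from -0.50 to 0.048). Hif1an, which hydroxylates an asparagine of Hif1a and so blocks its coactivators, had one of 0.079 (95% interval from -0.11 to 0.27).

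**Figure D2:**
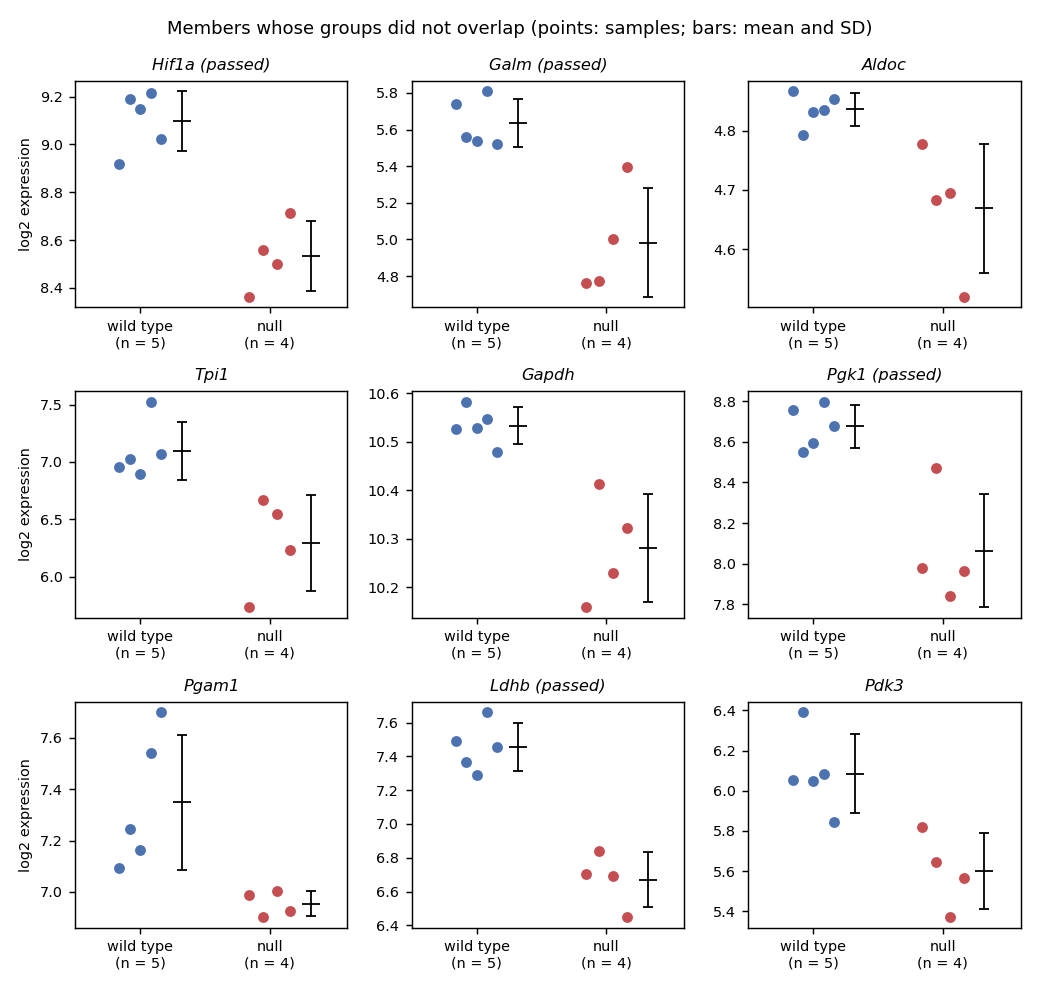
Log2 expression in each sample for the 9 members whose wild-type (n = 5) and null (n = 4) values did not overlap; points are samples, and bars beside them give the mean and SD. Ldhb has the widest gap between groups, 0.45, and Aldoc the narrowest, 0.015; the vertical axes differ and do not start at 0.

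Glucose enters T cells mainly through Slc2a1 and Slc2a3. Slc2a1 averaged 8.02 ± 0.094 (SD, n = 5) in the wild-type group and 7.93 ± 0.17 (SD, n = 4) in the null group. Its 95% interval ran from -0.29 to 0.11, the lower end being a 1.22-fold lower level. A second, dimmer Slc2a1 probe set differed by 0.022 (limma adjusted p = 0.911). Slc2a3 had a difference of -0.17 (95% interval from -0.41 to 0.071). The hexokinases, which trap glucose as its phosphate, had small differences: Hk1 differed by -0.054 (95% interval from -0.24 to 0.13) and Hk2 by -0.016 (95% interval from -0.19 to 0.16). After quantile normalisation the differences of Hk1 and Hk2 were above 0 (0.021 and 0.00026).

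Galm was 5.74, 5.56, 5.54, 5.81 and 5.52 in wild type and 4.76, 4.77, 5.00 and 5.40 in null samples. Each null value was below each wild-type value, with null sample 4 only 0.12 under the lowest of them. The difference was -0.65 ± 0.13 (SE), and limma gave an adjusted p of 0.0302. This call held without null sample 4 (adjusted p = 0.0041) and was lost without any other single sample, where limma adjusted p lay between 0.0571 and 0.0868.

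In upper glycolysis, from phosphofructokinase to triose phosphates, 0 of 7 measured members passed over all genes (3 had an unadjusted limma p under 0.05, all lower). Tpi1, the triose phosphate isomerase, had the largest difference of all members. It was 6.96, 7.02, 6.89, 7.53 and 7.07 in wild type and 5.73, 6.66, 6.55 and 6.23 in null samples. No values overlapped, but null sample 1 lay well below the other null samples and wild-type sample 4 well above the other wild-type samples. The difference was -0.80 ± 0.19 (SE), with limma adjusted p = 0.0619. Tpi1 did pass without null sample 2 (adjusted p = 0.0416), with array weights (0.0460), with the filter on dim genes (0.0350) and with the level of Hspa1a and Hspa1b as a covariate (0.0281).

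Phosphofructokinase, the committed step, has 3 subunit genes. Pfkl was 5.94, 5.90, 6.16, 6.205 and 5.95 in wild type and 5.90, 5.79, 5.39 and 5.65 in null samples. Its groups met at 5.90, the lowest wild-type and highest null value, and the difference of -0.35 did not pass (limma adjusted p = 0.150). Pfkp differed by -0.14 (95% interval from -0.30 to 0.027) and Pfkm, near the level of dim probe sets, by -0.15. Pfkfb3 and Pfkfb4, which make the activator of phosphofructokinase, had differences of 0.017 and -0.016. Pfkfb3 read 5.92 in 4 wild-type samples and in null sample 4, an identical deposited value in all 5. Aldoc, an aldolase, was 4.87, 4.79, 4.83, 4.84 and 4.85 in wild type and 4.78, 4.68, 4.69 and 4.52 in null samples. Its groups were apart by only 0.015, and the difference of -0.17 did not pass (limma adjusted p = 0.238).

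In lower glycolysis, from Gapdh to pyruvate kinase, Pgk1 fell and 5 of 6 members had lower means. Pgk1, which makes the first ATP of glycolysis, was 8.76, 8.55, 8.59, 8.80 and 8.68 in wild type and 7.98, 8.47, 7.84 and 7.97 in null samples. Null samples 1, 3 and 4 lay close together, while null sample 2 was only 0.080 under the lowest wild-type value. The mean fell from 8.68 ± 0.11 (SD, n = 5) to 8.06 ± 0.28 (SD, n = 4), a difference of -0.61 ± 0.12 (SE), with limma adjusted p = 0.0276. Without null sample 2 limma gave an adjusted p of 0.0026, and without any other single sample the call was lost (adjusted p from 0.0554 to 0.0834).

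Gapdh, the enzyme often used as a loading control, was 10.53, 10.58, 10.53, 10.55 and 10.48 in wild type and 10.16, 10.41, 10.23 and 10.32 in null samples. The 5 wild-type values lay close together and above all null values, and the difference of -0.25 (95% interval from -0.40 to -0.11, or 1.19-fold) did not pass (limma adjusted p = 0.0827). It did pass without null sample 2 (adjusted p = 0.0397), without null samples 2 and 4 together (0.0319) and with the trended, robust variance prior (0.0426). A second Gapdh probe set differed by -0.30 and another, dim one by -0.21, neither past the threshold. Pgam1, phosphoglycerate mutase, was 7.09, 7.24, 7.16, 7.54 and 7.70 in wild type and 6.99, 6.90, 7.001 and 6.93 in null samples. Its null values were tightly grouped just under the lowest wild-type value. Neither the difference of -0.39 (limma adjusted p = 0.141) nor that of a second, dim Pgam1 probe set (-0.070) passed. Pkm, a pyruvate kinase gene, was 9.21, 9.36, 9.41, 9.21 and 9.38 in wild type and 9.08, 9.21, 9.18 and 9.04 in null samples. The groups overlapped at 9.21, and the difference of -0.19 did not pass (limma adjusted p = 0.229). The enolases Eno2 and Eno3 had differences of -0.20 and 0.035. Named pseudogenes in the RefSeq gene table numbered 3 each for Gapdh, Pgk1 and Ldha, 2 for Pgam1 and 1 each for Ldhb and Vhl. Such copies can bind the same probes, and their part in these values was not tested.

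**Figure D3:**
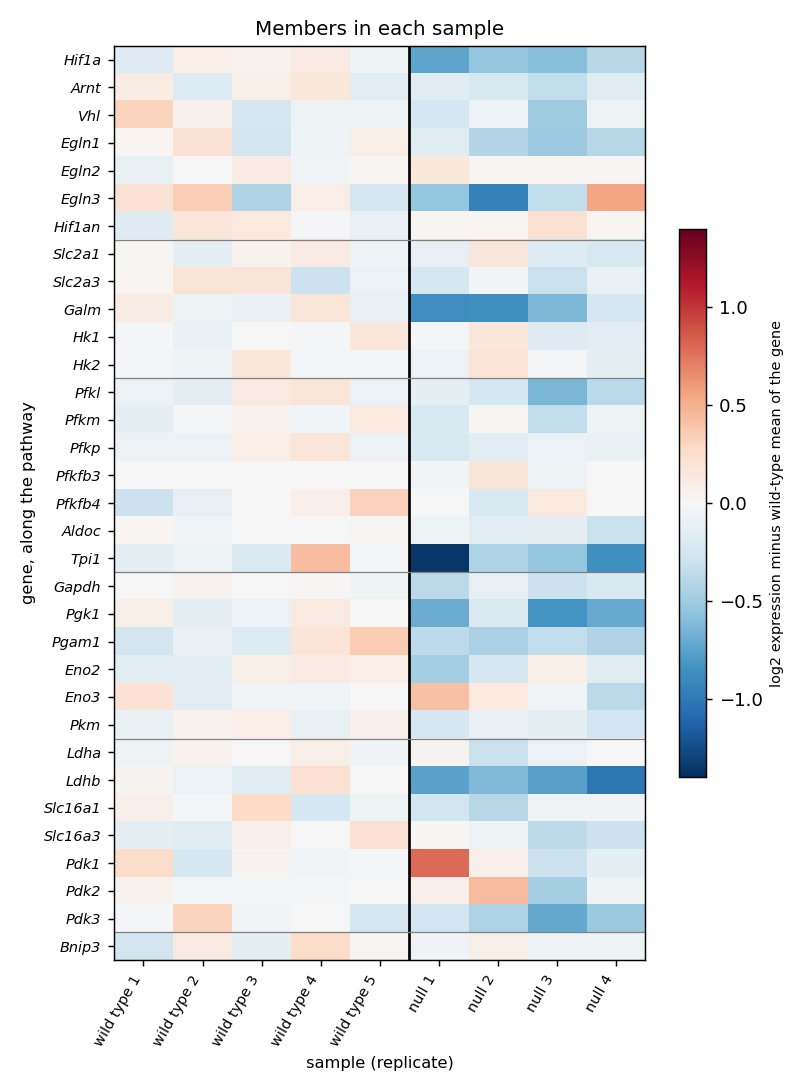
Log2 expression of each member in each sample minus the gene's wild-type mean, in pathway order; blue is lower and red higher, and the black line parts 5 wild-type from 4 null samples. Hif1a, Galm, Tpi1, Pgk1 and Ldhb are blue in all null samples. Red cells among the null samples include Egln3 in sample 4, Pdk1 and Eno3 in sample 1, and Pdk2 in sample 2.

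At the end of the pathway Ldhb fell, with the smallest p of all members. Ldhb was 7.49, 7.37, 7.29, 7.66 and 7.46 in wild type and 6.70, 6.84, 6.69 and 6.45 in null samples. The gap between the groups, 0.45, was wider than the range within the null group. The mean went from 7.45 ± 0.14 (SD, n = 5) to 6.67 ± 0.16 (SD, n = 4), a difference of -0.78 ± 0.097 (SE), with limma adjusted p = 0.0033. Ldhb passed without each single sample in turn (adjusted p from 0.0046 to 0.0155). Ldha, which encodes the subunit that favours lactate formation and is a known HIF-1 target, averaged 4.4995 ± 0.065 (SD, n = 5) in the wild-type group and 4.41 ± 0.16 (SD, n = 4) in the null group. Its level was not far above the median of all values, and its difference of -0.092 had a 95% interval from -0.27 to 0.086. The monocarboxylate transporters Slc16a1 and Slc16a3, which carry lactate across the membrane, had differences of -0.19 and -0.18, neither past the threshold.

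Of the pyruvate dehydrogenase kinases, Pdk3 was 6.06, 6.39, 6.05, 6.08 and 5.84 in wild type and 5.82, 5.65, 5.37 and 5.57 in null samples. The groups were apart by 0.022, between wild-type sample 5 and null sample 1, and the difference of -0.48 ± 0.12 (SE) did not pass (limma adjusted p = 0.0662). It passed with the filter on dim genes (adjusted p = 0.0403) and with the heat shock covariate (0.0247). Pdk1, a HIF-1 target, had a difference of 0.11 with a wide 95% interval, from -0.32 to 0.54, because null sample 1 read 7.23 and the other null samples 6.14 to 6.51. Without that sample the difference of Pdk1 was -0.12. A second Pdk1 probe set had a mean of 6.62 ± 0.068 (SD, n = 4) in null against 6.36 ± 0.23 (SD, n = 5) in wild-type samples. Its difference of 0.26 had an unadjusted limma p of 0.0368 and did not pass (limma adjusted p = 0.290). Pdk2 differed by -0.0059 (95% interval from -0.33 to 0.32). Bnip3, a mitophagy receptor that HIF-1 induces, was close to the median of all values in both groups and differed by -0.026.

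Members of one enzyme family were then set against each other. For each of the 15 pairs, the difference between the 2 genes in a sample was compared between genotypes, a comparison added after the values were seen. The sharpest contrast was Ldha minus Ldhb, which was larger in null samples by 0.69 ± 0.16 (SE) without overlap between the groups. Its exact two-sided permutation p was 0.0079, the smallest that 5 against 4 samples allow, and 0.0794 after Benjamini-Hochberg adjustment over the pairs. Most of this contrast was the difference of Ldhb itself (-0.78, against -0.092 for Ldha). Ldha read not far above the median of all values, where a fall may be hard to see. Whether its low signal hid a fall was not tested. Pdk1 minus Pdk3 (0.60, adjusted p = 0.0794 by the exact permutation test) and Pdk2 minus Pdk3 (0.48, same adjusted p) also separated the groups. Egln1 minus Egln2 had a difference of -0.43 ± 0.11 (SE) between genotypes, with an exact permutation p of 0.0238, or 0.0893 adjusted. No pair passed the threshold of 0.05 after adjustment, and 4 of the 15 had an unadjusted p under it. Since p cannot be smaller than 0.0079 here, a pair alone could not pass after adjustment over 15 pairs. Failure to pass therefore says little. Pairs that share a gene, such as Pdk1 and Pdk2 each minus Pdk3, are not independent results.

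The shift was present in each null sample, to a different degree. The median over the 33 members of the value minus the gene's wild-type mean was -0.17 in null sample 1, -0.14 in null sample 2, -0.30 in null sample 3 and -0.17 in null sample 4. Over genes above the median of all values the same quantity lay between -0.045 and -0.014. Members below the lowest wild-type value numbered 18, 17, 23 and 20 in the 4 null samples, and those above the highest numbered 4, 5, 1 and 1. As shares of the 33 these are 51.5% to 69.7% below and 3.03% to 15.2% above. Among genes above the median of all values 28.98% to 35.9% lay below the lowest wild-type value in a null sample and 16.7% to 23.9% above the highest. Among all genes these ranges were 21.3% to 24.6% and 17.3% to 24.7%. Null sample 3 alone held the lowest value of the null group for 14 of the 33 members.

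Beyond the members, 102 measured genes of 6 lists covered the rest of the pathway and its surroundings. Arnt2 fell and 0 rose in limma's test over all genes (14 lower and 6 higher at an unadjusted p under 0.05). The median difference over all 102 was -0.034. The share called lower was 0.98% of the 102 and 1.89% of all genes. At the unadjusted level 2174 of all 22180 genes were lower and 1122 higher. For the 11350 genes above the median of all values these counts were 1975 and 703. Counts for single lists below can be read beside these. Arnt2, a relative of Arnt that can also pair with HIF alpha subunits, was 5.19, 5.83, 5.27, 5.99 and 5.62 in wild type and 4.53, 4.69, 4.78 and 4.99 in null samples. The groups lay apart by 0.20. The difference was -0.84 ± 0.17 (SE) with limma adjusted p = 0.0303, and it no longer passed without any 1 of wild-type samples 2, 4 and 5 or null samples 1, 2 and 3 (adjusted p from 0.0621 to 0.0919). It was the 1 call among the 13 HIF subunits and Vhl ligase genes.

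HIF-1 response genes outside the members had a median difference of -0.058 over 28 genes, and 0 passed in limma (6 lower and 1 higher at an unadjusted p under 0.05). The smallest p-values were for Rora, a nuclear receptor (difference -0.39, limma adjusted p = 0.0608), and Bhlhe40, a transcriptional repressor. Bhlhe40 was 8.05, 9.11, 8.16, 7.9998 and 7.85 in wild type and 6.50, 6.82, 7.45 and 7.58 in null samples. The groups did not overlap, but each spread over more than a log2 unit, and the difference of -1.15 had limma adjusted p = 0.0726. Both genes passed only with the filter on dim genes (adjusted p = 0.0388 and 0.0410). Vegfa, the angiogenic factor and a classical HIF-1 target, was named after its values were seen. It was the 1 gene of this list higher in null samples without overlap (difference 0.24, limma adjusted p = 0.124), near the median of all values. Lower without overlap were 3 genes of the list: Rora, Bhlhe40 and Plod2. Plod2, below the median of all values, had a difference of -0.72 (limma adjusted p = 0.128).

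In the 4 remaining lists 0 genes passed over all genes in limma. Of 25 other glycolytic isoenzymes and minor glucose transporters 3 were lower and 2 higher at an unadjusted p under 0.05, and Pgam2 (difference 0.44) and Slc2a9 (-0.25) had the smallest p. For the 11 genes of pyruvate entry into mitochondria no unadjusted p was under 0.05; Dld and Pdhb, subunits of the pyruvate dehydrogenase complex, had differences of -0.15 and 0.21. The 7 pentose phosphate pathway genes had the lowest median of these lists, -0.19, with 2 lower at an unadjusted p under 0.05, Pgd (difference -0.41, limma adjusted p = 0.163) and Taldo1 (-0.28). Pgd passed without null sample 3 (adjusted p = 0.0466). Among 18 regulators of glucose uptake and glycolysis 2 were higher at an unadjusted p under 0.05: Tsc1, an inhibitor of mTOR signalling (difference 0.18), and Myc, which drives glycolytic genes in activated T cells (0.29, limma adjusted p = 0.327).

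**Figure D4:**
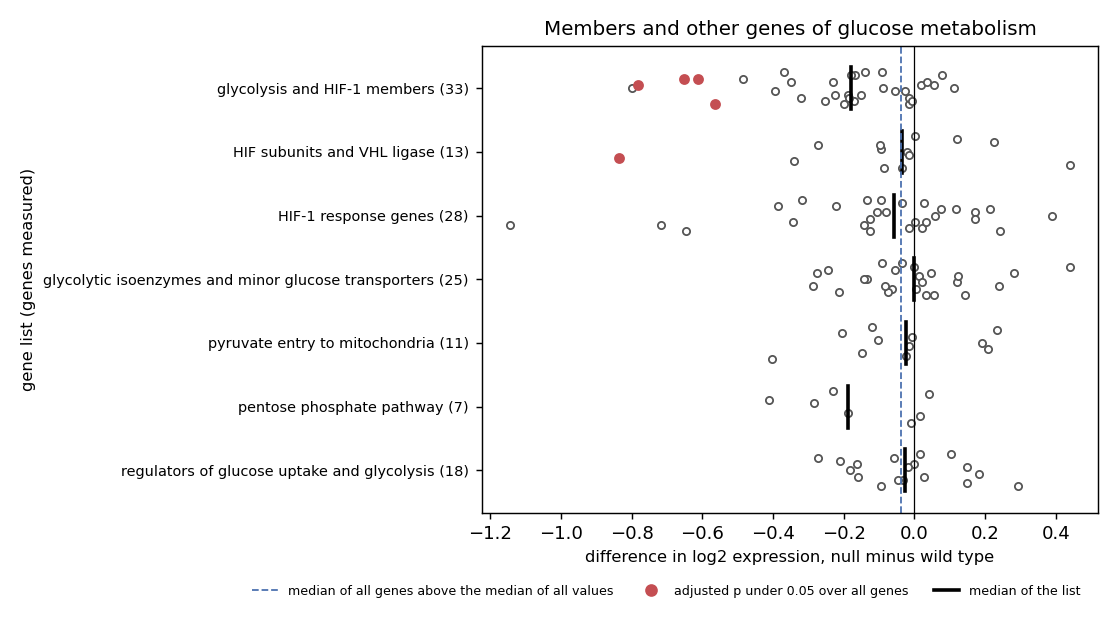
Difference in log2 expression (null minus wild type) of each measured gene in the member list and 6 other lists of glucose metabolism, with the number of genes in brackets; black bars are list medians, red points passed the threshold, and the dashed line is the median of all genes above the median of all values, -0.037. The member list holds 4 red points and has a median of -0.18; the other lists hold 1 red point, Arnt2.

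Markers of other cell types and states were read in the same arrays. Each list is given as its median difference and as its mean level per sample. Median differences were 0.59 for naive conventional T cell, -0.19 for Treg cell, -0.18 for cycling cell and -0.17 for CD4 T cell markers. The remaining lists gave 0.25 (B and plasma cells), 0.16 (myeloid cells), 0.094 (CD8 T and NK cells) and -0.059 (erythroid cells). Over the members the median difference was -0.18. Naive conventional T cell markers differed most: 3 of 9 measured (Dapl1, Pde3b and Igfbp4) rose. Ccr7, Lef1, Satb1, Bach2 and Klf2 had higher means without passing, Ccr7 and Lef1 with overlap, and Il7r had a lower mean (-0.22). The mean level of the list was 6.72 to 7.02 in wild type and 7.44 to 7.75 in null samples. Whether these markers come from conventional T cells or from Treg cells was not tested. Treg cell markers, of which 3 of 8 fell as given above, had mean levels of 9.13 to 9.27 and 8.62 to 8.97. Cycling cell markers, of which 0 of 9 passed, had 6.14 to 6.32 and 5.77 to 6.15, which overlap at their ends. The part of these 3 lists, and of the CD4 T cell list below, in the members' differences was not tested. Marker levels overlapped between groups for B and plasma cells (4.67 to 5.49 in wild type, 4.92 to 5.58 in null samples), myeloid cells (4.03 to 4.46 and 4.04 to 5.05, highest in null sample 4), CD8 T and NK cells (3.79 to 4.04 and 3.87 to 4.19) and erythroid cells (3.98 to 4.24 and 3.99 to 4.25). Markers of CD4 T cells (10.04 to 10.14 and 9.86 to 10.05) overlapped too, with the highest null value in null sample 2. Within that list Cd3e (difference -0.31, limma adjusted p = 0.0619), Cd3g (-0.32) and Cd3d (-0.15) were lower in null samples without overlap. Cd4 (-0.18) was lower with overlap, and Cd5 (0.079) and Cd28 (0.11) had higher means. No marker of these last 5 lists passed. An array gives no true zero, so the absence of a marker cannot be shown.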

How the data were processed

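RNA of sorted Treg cells was measured in 9 samples (5 wild type, 4 null). The authors deposited log2 expression values of 41345 probe sets, for which the submitters' processing notes name RMA and Affymetrix Expression Console 1.1. RMA subtracts background, gives the probe intensities of all arrays 1 distribution and joins the probes of a set into a single value. The joined values did not share 1 distribution exactly: array medians ran from 3.99 to 4.08. Without scanner values a low level cannot be told from background, and precision rests on how many arrays there are. A genome build for the array was not given in the sources used here.

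Gene names came from the platform annotation: 23521 probe sets had 1 symbol, 1814 several and 16010 none listed. A gene was represented by its probe set with the highest mean, giving 22180 genes, with no filter on dim genes. The Entrez identifiers of all 33 measured members carry the same symbol in the RefSeq gene table (GRCm38.p6). There were 12 probe sets naming a member beside another gene, which were not used.

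Groups were compared by limma 3.58.1 in R 4.3.3 (lmFit and eBayes, two-sided, Benjamini-Hochberg over all genes, threshold 0.05), tested on simulated data. The members and lists were chosen with earlier results of these data known. Every member is accounted for; members past the threshold, without overlap, or with unadjusted p under 0.05 are given in every sample. Of each other list, all genes past the threshold are named, or the 2 with the smallest p. Isoenzyme pairs were compared by exact permutation over all 126 splits, an analysis added after seeing the data. Correlations between members were not reported, because the 2 genotypes form separate clusters. Alternatives, set out in the closing section, changed normalisation, filter, probe set rule, variance model, covariates or samples. The other steps used pandas 2.3.3, numpy 2.4.6 and matplotlib 3.10.9 under Python 3.11.15.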

Additional observations from a re-analysis of the deposited data

Results flagged for a closer look

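Within a group, the highest or lowest sample stood far from the others (Dixon's criterion at 95%) in 8 of 88 groups tested, where chance gives about 5% of groups. In Tpi1, wild-type sample 4 was high at 7.53, with the next at 7.07. In Bhlhe40, wild-type sample 2 was high at 9.11 against 8.16. Bnip3 was highest in null sample 2, at 4.21 against 4.09. The other 5 are small gaps beside samples that share a value or nearly do: Egln2 in null sample 1 (7.29 against 7.16), Hif1an in null sample 3 (5.17 against 4.98), Hk2 in wild-type sample 3 (4.57 against 4.39), Pfkfb3 in wild-type sample 2 (5.929 against 5.921) and Pdk2 in wild-type sample 1 (5.56 against 5.51). None of these 8 genes passed the test between genotypes, and no cause was tested.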

How the results depend on the processing

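Over 19 alternatives Hif1a kept its direction and call, and Ldhb lost its call only with the replicate number as a block (adjusted p = 0.0590). Galm and Pgk1 kept their direction and passed in 10 of 19 each. The count of called members went from 4 to between 2 and 5 when 1 sample was left out, and the count over all genes from 515 to between 271 and 594. Leaving out any 1 wild-type sample, or null sample 1 or 3, left Hif1a and Ldhb called. Called genes in the 6 other lists went from 1 to between 0 and 2 when 1 sample was left out, to 3 with the filter on dim genes (Arnt2 with Rora and Bhlhe40), to 2 after quantile normalisation and to 3 without null samples 2 and 4 together. The members without overlap stayed between 7 and 13, and the members' median difference between -0.20 and -0.15.

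The replicate numbers in the titles did not pair the samples: deviations of same-numbered samples correlated by 0.042, -0.11, 0.011 and 0.041. With the number as a block 178 genes and 1 member, Hif1a (adjusted p = 0.0338), passed, and Pfkfb4 had a difference of 0.065. Quantile normalisation raised the share of called genes that were higher from 18.4% to 35.7%.

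Signs turned only in members with differences near 0 that never passed. With quantile normalisation the differences were 0.021 for Hk1, 0.00026 for Hk2 and 0.055 for Pdk2. With array weights Pfkfb3 was at -0.0034. Without null samples 2 and 4 together Pfkfb3 was at -0.053 and Pfkfb4 at 0.074. Leaving out 1 sample gave ranges of -0.085 to 0.026 for Hk2, -0.036 to 0.047 for Pfkfb3, -0.090 to 0.066 for Pfkfb4, -0.090 to 0.17 for Eno3, -0.12 to 0.25 for Pdk1, -0.16 to 0.15 for Pdk2 and -0.091 to 0.037 for Bnip3. Over 11 alternatives the differences of the 4 isoenzyme pairs named kept their sign, with ranges of 0.59 to 0.82 for Ldha minus Ldhb, 0.44 to 0.74 for Pdk1 minus Pdk3, 0.29 to 0.56 for Pdk2 minus Pdk3 and -0.52 to -0.38 for Egln1 minus Egln2.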

Other observations

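Of all 22180 genes, 7147 (32.2%) had exactly the same deposited value in 3 or more of the 9 arrays. This held for 9 of the 33 members (27.3%) and for 0 of the 4 called. Hk2 and Pfkp shared 1 value across 4 arrays and Pfkfb3 across 5, so that the wild-type SD of Pfkfb3 was only 0.0033. The SD of such a gene within a group is not a usual replicate error; the cause of the shared values was not tested.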
